A study of Homo sapiens with 32 samples.

Results

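Keratins are the intermediate filament proteins of epithelial cells, and 10 of their genes were followed here in MDA-MB-468 cells treated with salinomycin (Sal), dasatinib (Das) or both (S + D). The 10 were taken by name: 6 basal and stress keratins (KRT5, KRT6A, KRT6B, KRT14, KRT16 and KRT17) and 4 simple, or luminal, keratins (KRT7, KRT8, KRT18 and KRT19). All 10 were found among the 48804 genes of the count table, and all 10 passed the filter on low counts in every comparison. MDA-MB-468 is an established human breast cancer line of the triple negative, basal-like kind. Sal is a polyether ionophore and Das a kinase inhibitor that acts on SRC and ABL family kinases. The 8 conditions were PBS (control), 0.5 μM Sal, 15 μM Das and S + D, in which both drugs were given at those doses, harvested after 24 h or 72 h. A condition had 4 libraries, 3 with a replicate number and 1 without (called unnumbered below), which made 32 libraries of this 1 line. The drugs were dissolved in DMSO, and whether the PBS control held DMSO is not given in the sources used here.

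A keratin filament is built from pairs of a type I and a type II keratin. KRT5 (type II) pairs with KRT14 (type I) in the basal layer of stratified epithelia and in the basal, myoepithelial cells of the breast. KRT8 (type II) and KRT7 (type II) pair with KRT18 and KRT19 (both type I) in simple epithelia, including the luminal cells of the breast. KRT6A, KRT6B, KRT16 and KRT17 are low in resting epidermis and are induced by wounding and other stress, so they are called stress keratins. Pathologists stain breast tumours for KRT5 and its partners to recognise the basal-like type, and such tumours usually carry simple keratins as well.

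The libraries held 25692561 to 42769687 counts. Defining epithelial genes were present in every library (EPCAM 206 to 393, CDH1 195 to 361 and ESRP1 209.8 to 418 CPM), as was EGFR, which is amplified in this line, at 2793 to 5923 CPM. CPM is the count scaled to the library's total with TMM factors. Of the receptors that define triple negative tumours, PGR was at 0 in 25 of 32 libraries, ESR1 was at 3.64 to 12 CPM and ERBB2 at 56.8 to 192 CPM. The leukocyte genes PTPRC, CD3E and CD68 never passed 0.232 CPM and the endothelial genes VWF and CDH5 never passed 1.02 CPM. Of the fibroblast genes, COL1A2, COL3A1 and DCN held at most 2 counts and PDGFRB 79 counts in any library, while COL1A1 was at 18.2 to 120.0 CPM. The unnumbered libraries stood apart for several keratins, above all KRT17, so values within the numbered and the unnumbered libraries are given beside the results they touch.

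In GRCh37 the type II genes KRT5 (chr12:52908359-52914314), KRT6A (chr12:52880960-52887041), KRT6B (chr12:52840435-52845930) and KRT8 (chr12:53290971-53343738) lie on the minus strand and KRT7 (chr12:52626304-52645970) on the plus strand. The type I genes KRT14 (chr17:39738531-39743147), KRT16 (chr17:39766030-39772151), KRT17 (chr17:39775694-39781094) and KRT19 (chr17:39679869-39684560) lie on the minus strand of chromosome 17, and KRT18 (chr12:53342655-53346690) on the plus strand beside KRT8. Keratin genes resemble each other and have pseudogene copies in the genome, which matters for reads of 50 bases. Windows of 50 bases were cut within single exons, so stretches across splice junctions were not covered. Of its windows, KRT6A shared 39.4% with another place in GRCh37 and KRT6B shared 44.3%, chiefly with KRT6C and with each other. KRT8 shared 41.1% and KRT18 35.0%, with pseudogenes and with stretches inside other annotated genes. KRT14 shared 28.2%, KRT16 24.4% and KRT17 18.2%, while KRT5 shared 4.91%, KRT7 0.751% and KRT19 0.547%. To show how close the closest pair is, the first 50 coding bases of KRT6A (chr12:52886923-52886972, GRCh37, minus strand) and of KRT6B (chr12:52845813-52845862, minus strand) are given 5′ to 3′, with no base in capitals because the pair is identical along the window.
KRT6A: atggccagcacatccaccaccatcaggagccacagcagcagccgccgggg
KRT6B: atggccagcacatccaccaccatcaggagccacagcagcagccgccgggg
A read of this stretch cannot be given to 1 of the pair, so the split between KRT6A and KRT6B is uncertain. KRT6A held 0 to 78 counts per library, KRT6B 0 to 529 and KRT6C 0 to 7. Rows of annotated pseudogenes held 13.1% of the summed counts of KRT16 and its copies, 2.03% for KRT8, 0.915% for KRT17, 0.227% for KRT18 and 0.0124% for KRT19. KRT8 and KRT18 lie head to head on chromosome 12 with overlapping exons on opposite strands. Of annotated exon bases, 7.6% of those of KRT8 and 20% of those of KRT18 are shared with other genes. KRT7 shares 7.9% with an antisense gene and a pseudogene, and KRT17 shares 10.2% with an unnamed gene. Whether the counting used strand is not given in the sources used here.

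Per kilobase of transcript, simple keratins stood above basal ones in control cells. At 72 h in control, KRT19, the smallest keratin, led with 2051 ± 196 CPM per kb (SD, n = 4). KRT7 (776 ± 66.4), KRT8 (586 ± 108) and KRT18 (560.2 ± 46.0) followed, all below KRT19 in every library. KRT7 overlapped KRT8, and KRT8 overlapped KRT18. KRT5 came next with 237 ± 14.3 CPM per kb, below every simple keratin in every control library at 72 h. The rest were far lower, with KRT17 at 25.7 ± 10.3, KRT16 at 14.5 ± 3.09, KRT14 at 10.9 ± 3.05, KRT6B at 5.47 ± 0.410 and KRT6A at 0.857 ± 0.0422 CPM per kb. KRT17 overlapped KRT16 and KRT16 overlapped KRT14, whereas KRT14, KRT6B and KRT6A did not overlap. The order at 24 h in control was the same, with KRT5 higher at 388 ± 19.0 CPM per kb. The ratio of KRT5 to KRT14 per kb was 42.8 to 49.4 in the 24 h controls and 18.4 to 31.4 in the 72 h controls.

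**Figure D1:**
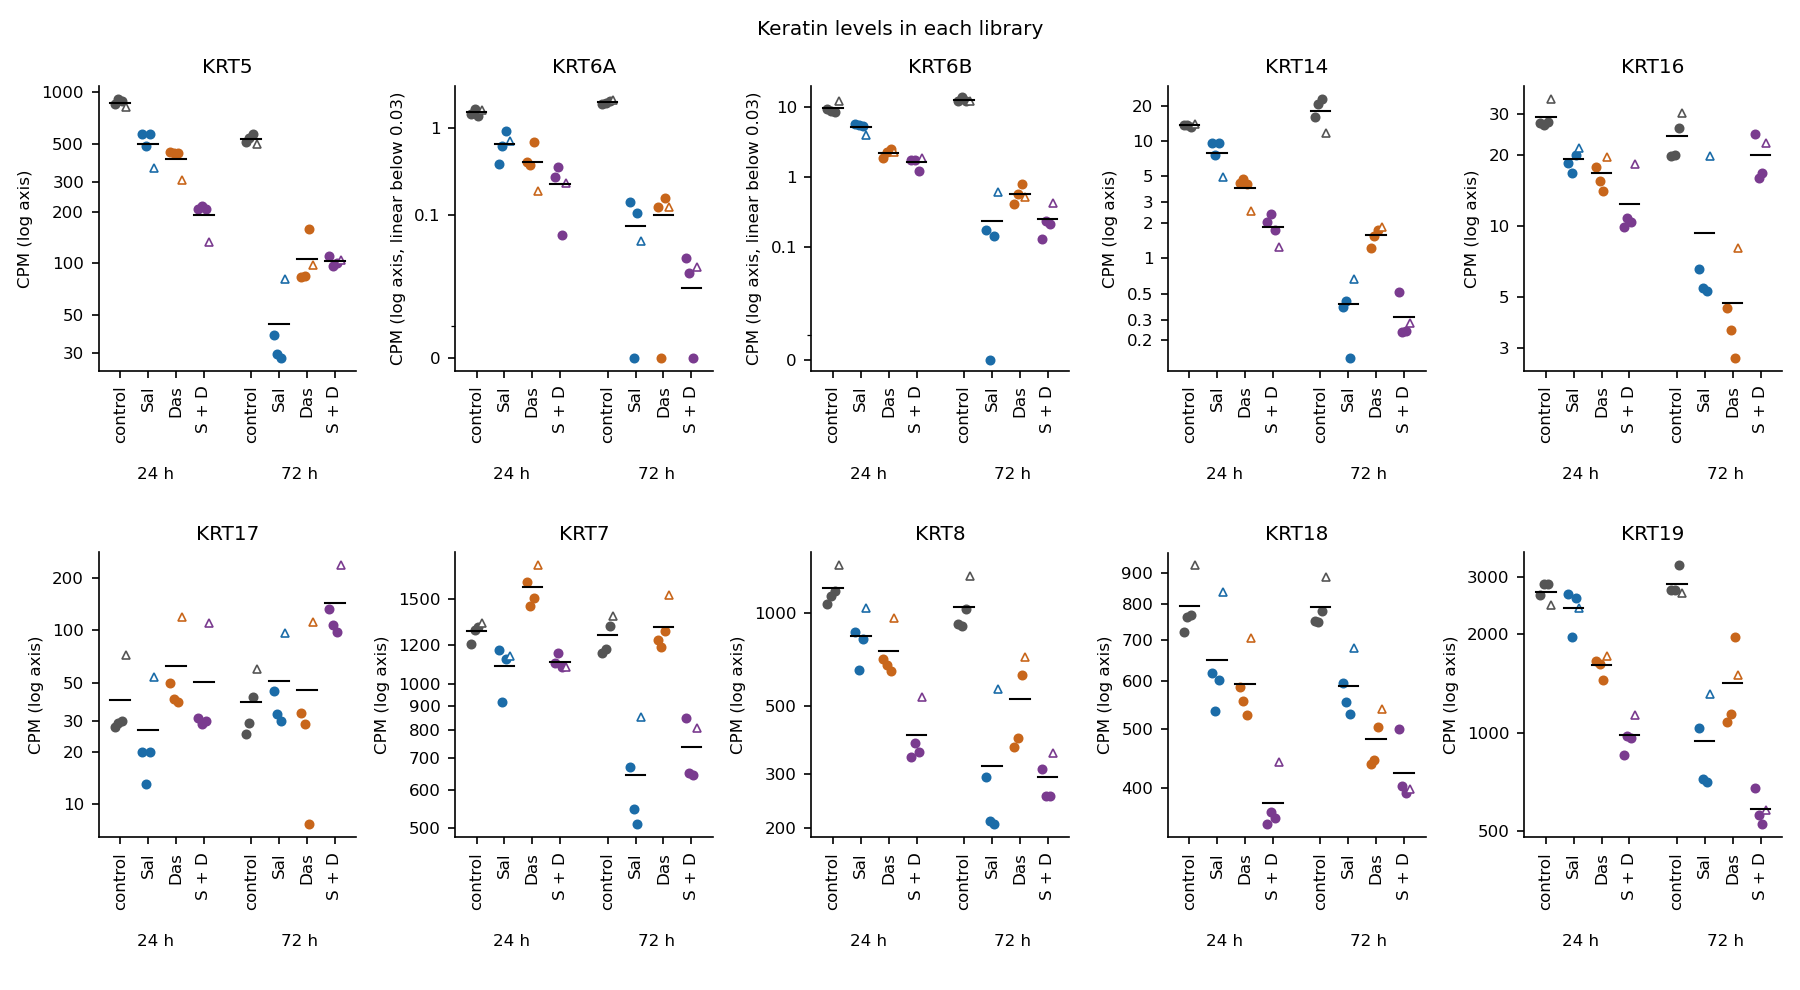
CPM of each keratin in each of the 32 libraries (y axis, CPM on a log axis, linear below 0.03 CPM for KRT6A and KRT6B), by treatment at 24 h and 72 h. Filled circles are numbered libraries, open triangles the unnumbered ones and bars the means of 4; KRT5, KRT6A, KRT6B and KRT14 fall with every treatment at 72 h, KRT17 is highest with S + D at 72 h, and the triangles of KRT17 lie above the circles in all 8 conditions.

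At 72 h, most of the 10 keratins were lower after each treatment, and the largest falls were among the basal and stress keratins. Against control, Sal lowered 9 of 10 keratins (26.8% of all 16682 genes tested were called lower at an adjusted p under 0.01) and raised 0 (26.3% of all genes were called higher). Das lowered 7 of 10 (9.36% of all genes were called lower) and raised 0 (10.5% were called higher). At an unadjusted p under 0.05, and by DESeq2, the count higher was 0 with Sal and 0 with Das. S + D lowered 8 of 10 (27.9% of all genes were called lower) and raised 1, KRT17 (27.0% of all genes were called higher). The median log2 fold change of the 6 basal and stress keratins was -4.17, -2.93 and -4.01 in the order Sal, Das and S + D, and that of the 4 simple keratins -1.30, -0.86 and -1.39. Over all genes tested the median lay at 0.0042, 0.02 and 0.01. The basal and stress keratins were spread widely, from -5.65 to 0.38, -4.47 to 0.22 and -6.30 to 1.87 in the same order. The simple keratins ran from -1.73 to -0.44, -1.01 to 0.05 and -2.30 to -0.79, so the ranges of the classes overlapped. Past the further cutoff of an absolute log2 fold change above 1.5, Sal lowered 4 basal and stress and 2 simple keratins, Das 5 and 0, and S + D 4 and 2, while KRT17 with S + D passed upward. Of all genes, 9.45%, 2.34% and 10.5% passed both cutoffs as lower, and 9.69% as higher with S + D. The 3 treatments shared the same 4 control libraries, so these counts are not independent of each other. In bulk RNA, fewer cells that carry a keratin and less keratin RNA in each cell cannot be told apart.

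KRT5, the type II keratin of basal cells, had its lowest levels with Sal. The control libraries at 72 h held 511, 538 and 573 CPM in replicates 1 to 3 and 502 CPM in the unnumbered library. With Sal they held 38.1, 29.3, 28.0 and 80.7 CPM, with Das 82.9, 84.7, 159 and 97.4 CPM, and with S + D 111, 96.4, 101 and 104 CPM, in the same order. Every treated library was below every control library. The log2 fold change was -3.61 ± 0.30 (SE, adjusted p = 4.2e-08) with Sal, -2.33 ± 0.28 (adjusted p = 1.3e-05) with Das and -2.38 ± 0.28 (adjusted p = 1.1e-06) with S + D. KRT5 with S + D lay near that with Das (log2 difference -0.05, 95% interval -0.61 to 0.51). It was higher than with Sal alone (log2 difference 1.23 ± 0.27, adjusted p = 0.0097), with 4 of 4 S + D libraries above all 4 Sal libraries. That call held within the numbered libraries (1.69, adjusted p = 0.00028), while the unnumbered pair differed by 0.37. Without Sal replicate 1, 2 or 3 or any 1 of the S + D libraries, its adjusted p was 0.0170 to 0.0377, and without the unnumbered Sal library 6.7e-05.

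KRT14, the type I partner of KRT5, was nearly lost. The 72 h controls held 16, 20.8, 22.8 and 11.7 CPM (replicates 1 to 3, then unnumbered). Sal libraries held 0.385, 0.432, 0.142 and 0.661 CPM, Das libraries 1.21, 1.54, 1.74 and 1.84 CPM, and S + D libraries 0.512, 0.236, 0.239 and 0.281 CPM. No treated library reached a control library, and the Das libraries all lay above the Sal and S + D libraries. The log2 fold change was -5.42 ± 0.34 (adjusted p = 3.3e-09) with Sal, -3.50 ± 0.29 (adjusted p = 3.2e-07) with Das and -5.84 ± 0.35 (adjusted p = 1.2e-09) with S + D. S + D was lower than Das by a log2 difference of -2.34 ± 0.35 (adjusted p = 4.8e-05), whereas against Sal the difference was -0.41 (95% interval -1.25 to 0.43), from counts of 4 to 26 with Sal and 8 to 16 with S + D.

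The stress keratins KRT6A and KRT6B, type II partners of KRT16 and KRT17, were low in control and almost absent after treatment. KRT6B held 12.1, 14, 12.3 and 12 CPM in the 72 h controls, 0.175, 0, 0.142 and 0.610 CPM with Sal, 0.404, 0.572, 0.777 and 0.514 CPM with Das and 0.128, 0.236, 0.209 and 0.421 CPM with S + D. All treated libraries lay below all controls. Log2 fold changes of KRT6B were -5.65 ± 0.48 (adjusted p = 5.3e-08) with Sal, -4.47 ± 0.43 (adjusted p = 1.4e-06) with Das and -5.64 ± 0.47 (adjusted p = 3.8e-08) with S + D. KRT6A had 56 to 78 counts per library in the 72 h controls, 0 to 4 with Sal and 0 to 5 with Das, and its log2 fold change was -4.73 ± 0.50 (adjusted p = 4.5e-07) and -4.21 ± 0.47 (adjusted p = 6.5e-06). With S + D, KRT6A had 3 counts in 4 libraries together against 279 in the controls, which is 91.6-fold lower with a 95% exact binomial interval of 31.0 to 447 that covers counting error only. Summed over KRT6A, KRT6B and KRT6C, the count was called lower with each of the 3 treatments.

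KRT16 and KRT17, the type I stress keratins, were not called lower with S + D at 72 h. KRT16 was called lower with Sal and with Das, and KRT17 with no treatment at that time. KRT16 held 19.8, 20.1, 26.1 and 30.4 CPM in the 72 h controls, 6.55, 5.41, 5.28 and 19.9 CPM with Sal, 4.45, 3.61, 2.74 and 8.03 CPM with Das and 24.6, 16.1, 16.8 and 22.5 CPM with S + D. Das libraries lay below all controls, the unnumbered Sal library lay among the controls, and the S + D libraries overlapped the controls. The log2 fold change was -1.39 ± 0.38 (adjusted p = 0.0041) with Sal, -2.35 ± 0.40 (adjusted p = 0.00029) with Das and -0.29 ± 0.37 (adjusted p = 0.51, 95% interval -1.07 to 0.49) with S + D. Within the numbered libraries Sal gave -1.96 (adjusted p = 2.6e-06) and the unnumbered pair -0.61, and the Sal call was lost (adjusted p 0.0106 to 0.0168) without Sal replicate 1, 2 or 3, control replicate 3 or the unnumbered control. With its pseudogene rows added, the KRT16 calls at 72 h did not change. S + D was above Das by a log2 difference of 2.07 ± 0.39 (adjusted p = 0.00043), with all 4 S + D libraries above all 4 Das libraries.

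KRT17 was called higher than control with S + D at 72 h. The controls held 25.3, 29.2, 41.1 and 60.1 CPM, Sal libraries 44.8, 32.9, 30.3 and 97.1 CPM, Das libraries 33.6, 29.0, 7.68 and 111 CPM, and S + D libraries 133, 108, 97.4 and 236 CPM. All 4 S + D libraries lay above all 4 controls, and Sal and Das overlapped them. Against control, S + D gave a log2 fold change of 1.87 ± 0.57 (adjusted p = 0.0084). It was 1.80 ± 0.38 within the numbered libraries (adjusted p = 0.00070), 1.97 between the unnumbered libraries (1 each, no test), and 1.84 ± 0.33 with a term for the unnumbered libraries (adjusted p = 7.1e-05). Without control replicate 1, 2 or 3 or S + D replicate 1, 2 or the unnumbered one the adjusted p was 0.0102 to 0.0285, with a log2 fold change of 1.57 to 1.98, so the call was lost. With Sal the change was 0.38 (95% interval -0.80 to 1.55) and with Das 0.22 (95% interval -0.96 to 1.39). Das replicate 3, at 7.68 CPM, was also the highest Das library for KRT5, KRT6A, KRT6B and KRT19.

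At 72 h the simple keratins fell less than KRT5, KRT6A, KRT6B and KRT14 with each treatment, though KRT19 with S + D lay near KRT5 (-2.38). They did not fall less than KRT16 and KRT17 throughout. With S + D each simple keratin fell more than KRT16 (-0.29) and KRT17 (1.87), and with Sal KRT8 and KRT19 fell more than KRT16 (-1.39). KRT19 held 2730.5, 2737, 3256 and 2677 CPM in the 72 h controls, 1033, 720.0, 704 and 1309 CPM with Sal, 1077, 1141, 1969 and 1505 CPM with Das and 676, 559, 523 and 578 CPM with S + D. No treated library overlapped the controls, and the S + D libraries lay below all Sal and Das libraries. Its log2 fold change was -1.62 ± 0.21 (adjusted p = 3.1e-06) with Sal, -1.01 ± 0.20 (adjusted p = 0.0012) with Das and -2.30 ± 0.21 (adjusted p = 8.7e-08) with S + D. Against Das alone S + D was lower by -1.30 ± 0.20 (adjusted p = 8.0e-05), and against Sal alone the difference of -0.69 ± 0.20 did not pass (adjusted p = 0.043).

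KRT8, the main type II keratin of simple epithelia, held 921, 908, 1029.5 and 1324 CPM in the 72 h controls, 292, 210.2, 205 and 567 CPM with Sal, 365, 392, 630.3 and 719 CPM with Das and 310.1, 253, 254 and 349.7 CPM with S + D. All treated libraries lay below all controls, and the unnumbered library was the highest of its 4 in each condition. On the log2 scale KRT8 changed by -1.73 ± 0.29 (adjusted p = 5.4e-05) with Sal and -1.86 ± 0.29 (adjusted p = 2.6e-05) with S + D. With Das it was -1.0 ± 0.29 and missed the threshold (adjusted p = 0.013), although it passed within the numbered libraries (-1.05, adjusted p = 0.0012) and without the unnumbered Das library (adjusted p = 0.0064). KRT8 with Das also passed with the replicate number as a block (-1.02, adjusted p = 0.00040). Its partner KRT18 went from 748 to 887 CPM in the controls to 530.0 to 677 CPM with Sal, 438 to 539 CPM with Das and 392 to 500.2 CPM with S + D, and no treated library overlapped the controls. Its log2 fold change was -0.44 ± 0.11 (adjusted p = 0.0026) with Sal, -0.72 ± 0.12 (adjusted p = 0.00018) with Das and -0.92 ± 0.12 (adjusted p = 2.4e-06) with S + D. The Sal call for KRT18 was lost without the unnumbered control or Sal replicate 2 or 3 (adjusted p 0.0102 to 0.0116).

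KRT7, a type II keratin of glandular ducts, differed between the treatments. At 72 h it held 1159.5, 1180.3, 1318 and 1383 CPM in the controls, 671, 549.6, 509.6 and 852 CPM with Sal, 1230.1, 1190.2, 1287 and 1532 CPM with Das and 846, 653, 646 and 809 CPM with S + D. The Das libraries overlapped the controls, and the Sal and S + D libraries lay below both. KRT7 changed on the log2 scale by -0.98 ± 0.15 (adjusted p = 2.4e-05) with Sal and -0.79 ± 0.15 (adjusted p = 0.00021) with S + D. With Das it was 0.05 (adjusted p = 0.83, 95% interval -0.27 to 0.37).

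**Figure D2:**
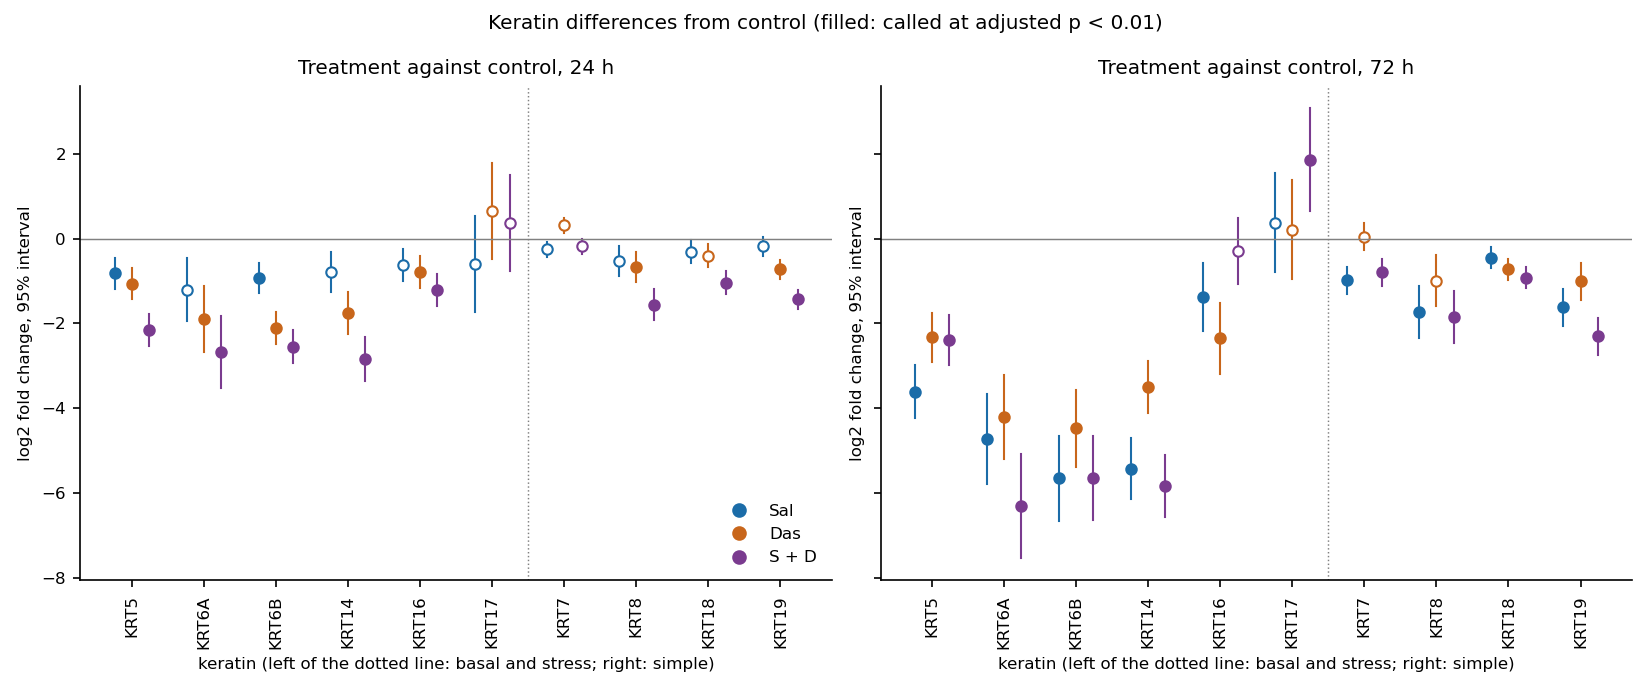
Log2 fold change of each keratin against the control of the same time point (y axis), with 95% intervals, for Sal, Das and S + D at 24 h and 72 h. Filled points were called at an adjusted p under 0.01; at 72 h KRT5, KRT6A, KRT6B and KRT14 lie between -2.33 and -6.30, the simple keratins between 0.05 and -2.30, and KRT17 with S + D is the only filled point above 0. The fit of KRT6A with S + D at 72 h rests on at most 1 count per library.

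At 24 h most of the 10 keratins were already lower with Das and with S + D. Sal lowered 2 of 10 keratins (2.23% of all 16357 genes were called lower), Das 7 of 10 (6.88% of all genes) and S + D 8 of 10 (16.5% of all genes), and 0 were called higher by edgeR in each (4.55%, 6.99% and 17.1% of all genes were). At an unadjusted p under 0.05 the count higher was 0 with Sal, 1 with Das (KRT7) and 0 with S + D, and by DESeq2 also 0, 1 and 0. At 24 h libraries with the same replicate number deviated together, most of all the unnumbered ones, and pairing by number was not shown apart from their shift. With the number as a block, Sal lowered 8 of 10 (8.71% of all genes were called lower in that fit), adding KRT6A, KRT8, KRT14, KRT16, KRT17 and KRT18 (adjusted p 0.00013 to 0.0068). The call of KRT5 with Sal (log2 fold change -0.81 ± 0.17, adjusted p = 0.0047) was lost without any 1 control library or without Sal replicate 2 or the unnumbered Sal library (adjusted p 0.0104 to 0.0180). That of KRT6B (-0.93 ± 0.17, adjusted p = 0.0015) held without any 1 library. With all 32 libraries in 1 fit both calls were lost (adjusted p = 0.026 for KRT5 and 0.037 for KRT6B), and with only the groups compared that of KRT6B was lost (adjusted p = 0.011).

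Among basal and stress keratins at 24 h, KRT5 fell from 850.2, 915, 889 and 818 CPM in the controls to 449, 439, 442 and 308 CPM with Das and to 208, 216, 208 and 134 CPM with S + D. The log2 fold change was -1.06 ± 0.17 (adjusted p = 0.00028) and -2.15 ± 0.18 (adjusted p = 1.3e-07), and the 3 groups did not overlap. KRT14 fell with Das and S + D, with log2 fold changes of -1.76 ± 0.23 (adjusted p = 5.3e-05) and -2.84 ± 0.25 (adjusted p = 2.5e-07). KRT6B fell likewise (-2.11 ± 0.17, adjusted p = 5.4e-07, and -2.54 ± 0.18, adjusted p = 2.4e-08), as did KRT6A (-1.89 ± 0.37, adjusted p = 0.0014, and -2.67 ± 0.40, adjusted p = 5.0e-05). KRT16 fell with Das (log2 fold change -0.78 ± 0.18, adjusted p = 0.0038) and S + D (-1.21 ± 0.18, adjusted p = 4.4e-05), and the Das call was lost without the unnumbered control or Das replicate 2 or 3 (adjusted p 0.0150 to 0.0162).

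KRT17 at 24 h was highest in the unnumbered library of each condition. Numbered controls held 27.9, 29.3 and 30.3 CPM and the unnumbered control 71.8 CPM. With Sal the values were 20.1, 13.2, 20.05 and 54.1 CPM, with Das 50.2, 40.2, 39.0 and 119 CPM, and with S + D 31.4, 29.1, 30.0 and 111 CPM. Over all 4 libraries no treatment passed (log2 fold change -0.59, 0.66 and 0.37, adjusted p = 0.53, 0.42 and 0.60). With the replicate number as a block, KRT17 fell with Sal (log2 fold change -0.66 ± 0.12, adjusted p = 0.00048) and rose with Das (0.62 ± 0.12, adjusted p = 0.00037). Within the numbered libraries Sal gave -0.69, Das 0.60 and S + D 0.06, and between the unnumbered libraries -0.41, 0.73 and 0.63.

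Among simple keratins at 24 h, KRT19 fell with Das (log2 fold change -0.72 ± 0.10, adjusted p = 0.00010) and with S + D (-1.43 ± 0.11, adjusted p = 4.2e-08). KRT8 fell with Das (-0.66 ± 0.16, adjusted p = 0.0078) and with S + D (-1.55 ± 0.17, adjusted p = 2.0e-06). The Das call of KRT8 was lost without any 1 control library or without Das replicate 1, 2 or 3 (adjusted p 0.0126 to 0.0312). KRT18 fell with S + D (log2 fold change -1.04 ± 0.13, adjusted p = 9.9e-06). With Das its change was -0.40 ± 0.13 (adjusted p = 0.033), which passed with the block (adjusted p = 9.6e-05). KRT7 with Das went the other way, from 1206, 1292, 1309.8 and 1338 CPM in the controls to 1624, 1447, 1507 and 1760.3 CPM. The Das libraries all lay above the controls, and the log2 difference of 0.32 ± 0.08 just missed the threshold (adjusted p = 0.0103) and passed with the block (adjusted p = 0.0027).

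S + D was set against each drug alone at 24 h. Against Sal, 6 of 10 keratins were lower (7.06% of all genes were called lower): KRT5, KRT6B, KRT14, KRT8, KRT18 and KRT19, with log2 differences of -0.73 to -2.05. With the block KRT6A (-1.46, adjusted p = 0.0093) and KRT16 (-0.62, adjusted p = 0.00033) passed as lower and KRT17 (0.89, adjusted p = 1.3e-05) as higher. Against Das, 6 of 10 were lower (4.46% of all genes): KRT5, KRT14 and the 4 simple keratins, with log2 differences of -0.50 to -1.08. With the block KRT16 passed too (-0.45, adjusted p = 0.0054), as it did without the unnumbered S + D library (adjusted p = 0.0027). The call of KRT14 against Das was lost without Das replicate 1, 2 or 3 or S + D replicate 1, 3 or the unnumbered one (adjusted p 0.0169 to 0.0232), and that of KRT18 without Das replicate 1 or S + D replicate 1, 2 or 3 (adjusted p 0.0104 to 0.0155).

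At 72 h S + D was set against each drug again. Against Sal, 0 of 10 were called lower by edgeR (1.59% of all genes were called lower) and 1 higher, KRT5 (1.42% of all genes were called higher). At an unadjusted p under 0.05, 2 were lower and 3 higher, and DESeq2 called 1 lower (KRT18) and 1 higher (KRT5). KRT18 (log2 difference -0.47 ± 0.11, adjusted p = 0.016) and KRT19 (-0.69 ± 0.20, adjusted p = 0.043) missed the threshold with all 4 S + D libraries below all 4 Sal libraries. KRT17 stood at 1.49 ± 0.57 above Sal (adjusted p = 0.12), with all 4 S + D libraries above all 4 Sal libraries. It stood at 1.65 ± 0.37 within the numbered libraries (adjusted p = 0.012) and at 1.28 between the unnumbered ones, and passed with a term for the unnumbered libraries (1.57 ± 0.33, adjusted p = 0.0032). KRT16 stood at 1.10 ± 0.38 (adjusted p = 0.086), at 1.74 within the numbered libraries (adjusted p = 0.00016) and at 0.18 between the unnumbered ones, and it passed without the unnumbered Sal library (adjusted p = 0.0012). KRT18 passed without S + D replicate 1 (adjusted p = 0.0084). Against Das at 72 h, KRT7, KRT14 and KRT19 were lower (17.7% of all genes were called lower) and KRT16 was higher (14.3% of all genes were called higher). KRT17 stood at 1.65 ± 0.57 above Das (adjusted p = 0.025) and passed without the unnumbered Das library (adjusted p = 0.00049). With the block, KRT17 passed as higher than with Das (1.95, adjusted p = 0.00014) and KRT8 as lower (-0.83, adjusted p = 0.0012).

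Whether the drugs together did what each did alone was read from the interaction, the S + D difference minus the added log2 differences of Sal and Das. At 24 h the interaction passed for 0 of 10 keratins by edgeR (0.0306% of all genes passed in either direction), and for 2, KRT7 and KRT19, at an unadjusted p under 0.05. DESeq2 called 0 of the 9 keratins it gave an adjusted p. The 4 simple keratins all lay below the sum at 24 h, at -0.25 to -0.52. Within the numbered libraries KRT5 (-0.40, adjusted p = 0.0027) and KRT19 (-0.58, adjusted p = 0.0058) passed. At 72 h it passed for 4 of 10, all above 0 (3.43% of all genes passed in that direction), so S + D lay above the added differences. KRT5 stood at 3.56 ± 0.39 above the sum (adjusted p = 3.4e-05) and KRT16 at 3.45 ± 0.55 (adjusted p = 0.00067). For KRT5 the added differences would leave 299.5 counts per S + D library and 3557.5 were measured on average, and for KRT16 62.5 against 687. KRT6B (4.48 ± 0.73, adjusted p = 0.00078) and KRT14 (3.09 ± 0.50, adjusted p = 0.00076) passed as well, but there the sum would leave 0.391 and 1.28 counts per library, which is near the limit of what these libraries can show (8.75 and 10.8 were measured). Of the simple keratins none passed, with interactions of 0.15 to 0.87, and KRT8 passed only without the unnumbered Sal library (adjusted p = 0.0063) or in fits that took the unnumbered libraries apart.

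**Figure D3:**
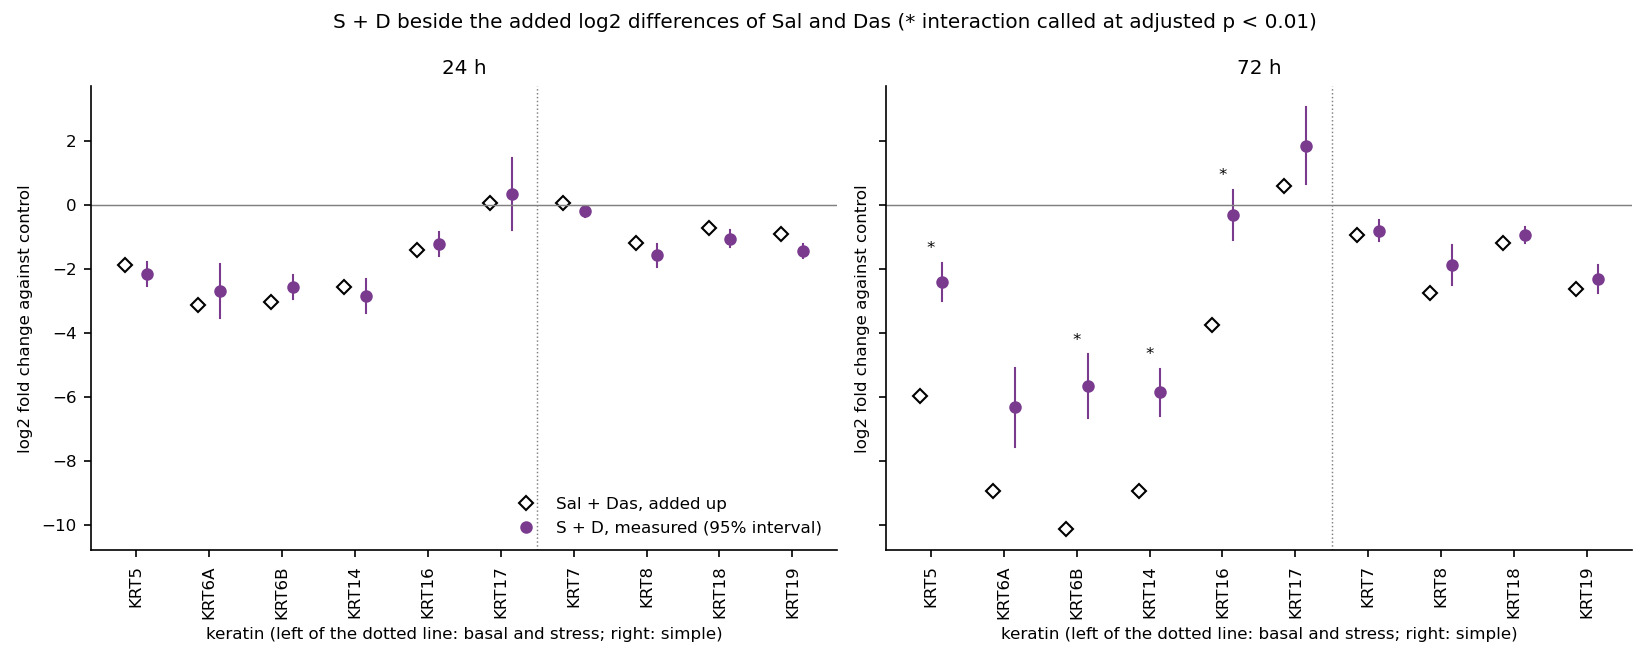
Log2 fold change against control (y axis) that the Sal and Das differences add up to (open diamonds) beside that measured with S + D (filled circles, 95% interval) for each keratin at 24 h and 72 h. At 24 h the circles lie -0.52 to 0.49 from their diamonds, and none is marked. Those of the 4 simple keratins all lie below, at -0.25 to -0.52. At 72 h the circles of KRT5, KRT6B, KRT14 and KRT16, marked by an asterisk, lie 3.09 to 4.48 above their diamonds.

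The mix of keratins changed with the levels. Summed over the 10 genes per kb, keratin RNA was 4267 ± 302 CPM per kb in the 72 h controls, 1729 ± 474 after Sal, 2547 ± 484 after Das and 1491 ± 185 after S + D (SD, n = 4), and the treated libraries did not overlap the controls. Basal and stress keratins made up 6.65 to 7.24% of that sum in the 72 h controls, 2.66 to 4.75% with Sal, 2.64 to 4.20% with Das and 9.05 to 13.4% with S + D. The share with S + D lay above the controls in every library, and its leading gene was KRT17 in place of KRT5. The basal and stress sum itself was lower with S + D, at 153 ± 44.5 CPM per kb against 294.8 ± 18.9 in control. The simple sum was 1338 ± 157 with S + D against 3972 ± 285 CPM per kb in control. KRT17 was 6.12 to 13.4% of the basal and stress sum in the controls, 55.7 to 58.0% with Sal, 6.39 to 59.6% with Das and 53.7 to 72.0% with S + D. At 24 h the basal and stress share was 9.89 to 10.2% in the controls and 5.62 to 8.25% with Sal, 6.42 to 8.02% with Das and 6.19 to 6.58% with S + D.

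The ratios of the usual partners moved as well. KRT8 to KRT18 per kb was 0.961 to 1.18 in the 72 h controls, 0.30 to 0.663 with Sal, 0.661 to 1.06 with Das and 0.491 to 0.694 with S + D. Sal and S + D lay below the controls in every library and Das overlapped them. KRT5 to KRT14 per kb was 18.4 to 31.4 in the 72 h controls, 49.5 to 144 with Sal, 38.7 to 66.8 with Das and 158 to 308 with S + D, and no treated group overlapped the controls. These ratios are taken within 1 library and do not depend on its normalization factor. At 72 h the ratio of KRT5 to KRT14 rests on 4 to 26 KRT14 counts per Sal library and 8 to 16 per S + D library. Its size and spread there therefore include counting error.

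**Figure D4:**
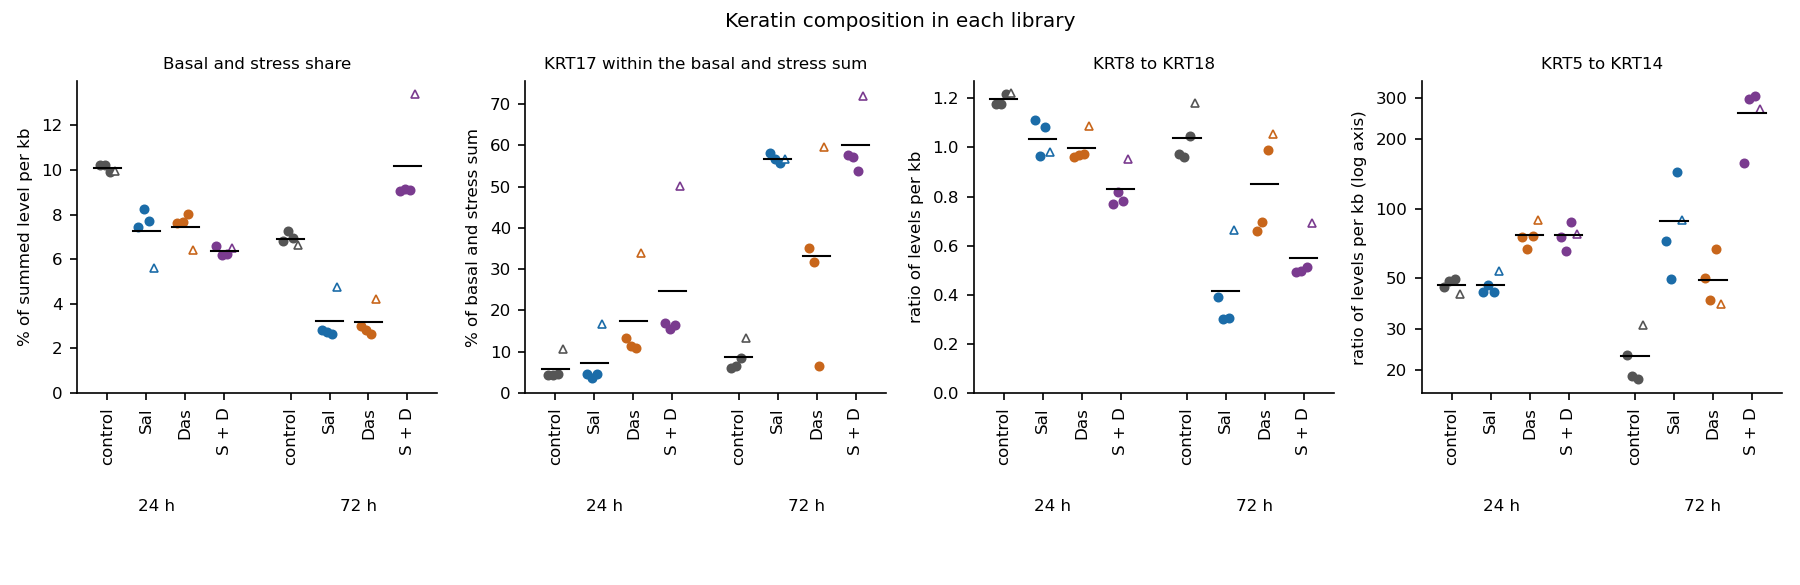
Composition of the keratin sum in each library, by treatment at 24 h and 72 h: share of basal and stress keratins (percent of the summed level per kb), KRT17 as percent of the basal and stress sum, and the ratios KRT8 to KRT18 and KRT5 to KRT14 per kb (the last on a log axis). Circles are numbered libraries, triangles unnumbered ones and bars means; the basal share falls to 2.64 to 4.75% with Sal or Das at 72 h and is 9.05 to 13.4% with S + D.

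Time in control was read from the PBS libraries. At 72 h against 24 h, 0 of 10 were called by edgeR (2.76% of all 17227 genes were called), 1 at an unadjusted p under 0.05 and 0 by DESeq2. KRT5 came nearest (log2 difference -0.71 ± 0.24, adjusted p = 0.066), with the 4 later controls below the 4 earlier ones, and passed within the numbered libraries (-0.71, adjusted p = 0.0031). The response to Sal differed between the times for 7 of 10 keratins, all more negative at 72 h (13.7% of all genes were called in that direction). KRT6B led with -4.71 ± 0.47 (adjusted p = 3.6e-08), followed by KRT14 with -4.62 ± 0.40 (adjusted p = 3.8e-09), KRT6A with -3.52 ± 0.63, KRT5 with -2.79 ± 0.34, KRT19 with -1.43 ± 0.24, KRT8 with -1.20 ± 0.35 and KRT7 with -0.72 ± 0.18. The response to Das differed for 1 keratin, KRT6B (-2.34 ± 0.44, adjusted p = 0.0070; 0.174% of all genes were called lower). The response to S + D differed for 4 (10.1% of all genes were called lower): KRT6A, KRT6B, KRT14 and KRT19, while KRT5 moved by -0.18 (95% interval -0.87 to 0.50). Within the numbered libraries it also passed upward for KRT16 (1.19, adjusted p = 0.00014) and KRT17 (1.77, adjusted p = 0.0018) and downward for KRT7 (-0.59, adjusted p = 0.0044), which over all libraries stood at 0.97, 1.55 and -0.55 (adjusted p = 0.10, 0.17 and 0.019). The calls of KRT8 with Sal, KRT6B with Das and KRT19 with S + D were lost without most single libraries, and leaving out 1 library at a time kept them in 4, 4 and 3 of 16 fits (adjusted p up to 0.0246, 0.0277 and 0.0237). The first was kept without the unnumbered 24 h control, 72 h control replicate 2, 24 h Sal replicate 2 or the unnumbered 72 h Sal library. The second was kept without either unnumbered control, 72 h Das replicate 3 or the unnumbered 72 h Das library. The third was kept without replicate 1 of S + D at 24 h or 72 h or the unnumbered 72 h control.

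Other keratins and the genes that hold keratin filaments in place were read from lists written with earlier results of these data known. Their counts at 72 h stand against all genes tested, of which 26.8%, 9.36% and 27.9% were called lower and 26.3%, 10.5% and 27.0% higher in the order Sal, Das and S + D. Of 19 other epithelial keratins, 8 were tested at 72 h. Sal lowered 4 and raised 0, Das lowered 2 and raised 0, and S + D lowered 5 and raised 2, with medians of -1.66, -0.29 and -2.43. KRT4, a keratin of oesophageal lining, went from 164 ± 25.9 CPM in control to 19.3 ± 4.97 CPM with Sal and 3.48 ± 0.264 CPM with S + D (log2 fold change -3.11 ± 0.28, adjusted p = 1.0e-07, and -5.58 ± 0.32, adjusted p = 8.6e-10). KRT23 fell with all 3 treatments, from 155 ± 10.4 CPM to 35.3 ± 0.634, 29.3 ± 10.3 and 24.2 ± 6.20 CPM. KRT80, a keratin of desmosomes, and KRT10, a keratin of differentiating epidermis, rose with S + D to 148 ± 8.46 and 56.2 ± 15.2 CPM from 81.1 ± 17.6 and 32.6 ± 3.84 CPM. KRT9 was lower with Das (1.38 to 0.234 CPM on average). Of 17 hair keratins 4 were tested: Sal lowered 2, Das raised 2, and S + D lowered 2 and raised 2, with medians of -0.49, 1.02 and -0.27, from so few genes that the counts are given as a description only. KRT81 rose with Das from 191 ± 13.2 to 657 ± 120.0 CPM (log2 fold change 1.78 ± 0.14, adjusted p = 1.3e-07) and with S + D to 284 ± 42.7 CPM, and KRT83 rose from 0.30 to 1.29 and 1.09 CPM. KRT38 and KRT86 were lower with Sal and with S + D.

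Of 17 desmosome and hemidesmosome genes, 14 were tested: Sal lowered 6 and raised 1, Das lowered 5 and S + D 6, with medians of -0.30, -0.47 and -0.33. Of all genes 26.8%, 9.36% and 27.9% were called lower. ITGB4, the integrin subunit that holds hemidesmosomes to the basement membrane, went from 177 ± 34.8 CPM to 58.7 ± 19.7 with Sal, to 79.4 ± 19.98 with Das, and to 56.5 ± 6.04 with S + D. Its partner ITGA6 fell with Das to 86.5 ± 16.4 from 154 ± 21.6 CPM. DSC3, a desmosomal cadherin, fell from 80.9 ± 13.5 to 25.7 ± 3.95 CPM with Sal and 20.8 ± 3.60 CPM with S + D, whereas PLEC, the plectin linker, rose with Sal from 253 ± 59.8 to 426 ± 90.9 CPM.

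Of 18 squamous and cornified envelope genes, 12 were tested: Sal lowered 8 and raised 1, Das lowered 8, and S + D lowered 6 and raised 2, with medians of -0.99, -1.80 and -0.64, where 26.8%, 9.36% and 27.9% of all genes were called lower and 26.3%, 10.5% and 27.0% higher. S100A7, a calcium-binding protein of inflamed skin, went from 668 ± 132 CPM to 41.7 ± 44.9 with Sal, to 19.8 ± 12.1 with Das, and to 8.19 ± 5.17 with S + D. S100A8 went from 320.5 ± 206 CPM to 14.3 ± 19.5, 6.70 ± 6.48 and 1.25 ± 1.38 CPM, with a wide spread in each group. TGM1, a transglutaminase of the cornified envelope, rose with Sal from 11.5 ± 3.36 to 30.0 ± 9.04 CPM, and SBSN rose with S + D from 1 to 5 counts per control library to 26 to 50.

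All 14 epithelial transcription factors were tested: Sal lowered 8, Das lowered 3 and raised 1, and S + D lowered 10 and raised 1, with medians of -0.83, -0.18 and -1.20. The shares of all genes called lower were 26.8%, 9.36% and 27.9%, and those called higher 26.3%, 10.5% and 27.0%. FOXA1, a luminal factor, went from 136 ± 14.8 CPM to 39.4 ± 4.81 with Sal and 26.6 ± 1.42 with S + D, and SOX9 with Sal from 262 ± 51.3 to 95.8 ± 10.6 CPM. GRHL3 fell with Das and S + D from 33.3 ± 5.83 to 13.7 ± 7.68 and 7.71 ± 0.212 CPM, TFAP2C fell with Das from 142 ± 10.1 to 98.5 ± 10.5 CPM, and KLF4 rose with Das and S + D from 13.6 ± 1.94 to 24.4 ± 6.79 and 24.1 ± 3.88 CPM. All 6 other intermediate filament genes were tested: Sal and S + D each lowered 4 and raised 2, and Das lowered 4, with medians of -1.43, -0.82 and -1.43, where 53.2%, 19.9% and 54.9% of all genes were called in either direction. VIM, the filament of mesenchymal cells, rose with Sal and S + D from 34.6 ± 4.51 to 56.3 ± 3.14 and 100.7 ± 13.8 CPM (log2 fold change 0.68 ± 0.19, adjusted p = 0.0050, and 1.52 ± 0.20, adjusted p = 3.1e-06), and SYNM from 14.1 ± 1.01 to 19.7 ± 1.37 and 22.4 ± 3.70 CPM. NES, a filament gene of progenitor cells, fell with all 3 treatments from 27.0 ± 8.89 to 1.39 ± 0.399, 3.68 ± 3.44 and 2.40 ± 0.344 CPM. The nuclear lamin LMNB1 fell with Sal and S + D from 247 ± 15.9 to 60.6 ± 2.76 and 41.0 ± 1.43 CPM, and LMNB2 with Das from 192 ± 20.5 to 98.7 ± 32.8 CPM.

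Among 13727 genes at a mean of at least 1 CPM, the 3 whose mean log2 CPM over the 8 conditions ran most like that of KRT5 were INTS9 (Pearson r = 0.995), RPUSD3 (r = 0.993) and TUBA1C (r = 0.993). Those most like KRT19 were AP1M2 (r = 0.994), SHROOM3 (r = 0.994) and SLCO2A1 (r = 0.993). These are descriptions over 8 condition means that share libraries and treatments. A high r does not mean a like size of change: INTS9 went from 25.5 CPM in the 72 h controls to 17.9 CPM with Sal, where KRT5 went from 531 to 44 CPM. Between the 10 keratins, KRT5 ran with KRT6B (r = 0.953), KRT8 (r = 0.928) and KRT14 (r = 0.927) over the 8 conditions, and against KRT17 its r was -0.36.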

How the data were processed

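MDA-MB-468 RNA-seq libraries (single-end reads of 50 bases) were read from 1 table of raw counts per gene that the authors deposited. The submitters' processing notes name bcl2fastq 2.19, STAR 2.5.2, Cufflinks 2.1.1, DESeq2 and GRCh37, while the counting program, annotation and strand setting are not given in the sources used here. Groups came from the sample labels. Ensembl IDs were matched to symbols (46537 of 48804). CPM used TMM factors, and levels between genes were divided by transcript length.

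Genes were filtered at a minimum count of 10 and tested with the quasi-likelihood test of edgeR 4.0.16 in R 4.3.3 (limma 3.58.1), over the 16 libraries of a time point, or all 32 for contrasts of time, with Benjamini-Hochberg adjustment over all genes tested. A keratin was called at an adjusted p under 0.01. The study's fold cutoff (absolute log2 fold change above 1.5) was an alternative, as were DESeq2 1.42.0, RLE factors, no filter, a replicate block, the numbered libraries alone, a term for the unnumbered libraries, other sample sets, summed copies and leaving out each library. The fits were also run on counts simulated for Sal against control at 72 h only. That simulation held no shared shift of the unnumbered libraries. The labels number the replicas of a condition and give the unnumbered library no replicate word. The study describes 4 biological replicates for each condition without saying how they were kept apart, so p-values measure the spread between these libraries.

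The 10 keratins and all lists were chosen with earlier results of these data known. From each list, the 2 genes with the largest change per treatment and direction at 72 h were named, among those called at 1 CPM or more in a group. At 24 h every same-number pair of libraries deviated together (correlations of 0.135 or more). Pairs of different numbers ran from -0.524 to 0.353 with a median of -0.0627, so single pairs of the 2 kinds overlapped. The unnumbered pairs stood highest (0.588 to 0.666). Deviations were taken from the mean of all 4 libraries, so a shift of the unnumbered library gives the numbered ones a shared opposite deviation. These correlations therefore cannot show pairing by number apart from that shift. The block was kept as an alternative, and blocked values stand beside 24 h results where they change a call. At 72 h the pairs of number 2 (0.117 to 0.253) and the unnumbered pairs (0.522 to 0.611) also deviated together, but pairs of numbers 1 and 3 went down to -0.0303 and -0.0236. Not every pair passed 0.1, and pairing was not taken as shown there either. The 72 h tests used no block, so the shared deviation of the unnumbered libraries stayed in their spread. Blocked values for 72 h stand beside some results for KRT8 and KRT17 and in the closing section. Promoter sequences are not reported here.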

Additional observations from a re-analysis of the deposited data

Results flagged for a closer look

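In 13 of 80 sets of 4 libraries (10 keratins in 8 conditions), 1 library lay far from the other 3 by Dixon's criterion, which chance alone meets in about 1 of 20 sets. Of these 13 libraries, 9 were unnumbered. For KRT17 at 24 h the unnumbered library stood apart in all 4 conditions, at 71.8 CPM in control, 54.1 CPM with Sal, 119 CPM with Das and 111 CPM with S + D. For KRT16 the unnumbered library was high in control at 24 h (34.8 CPM), with S + D at 24 h (18.4 CPM) and with Sal at 72 h (19.9 CPM). For KRT5 at 24 h it was low, at 308 CPM with Das and 134 CPM with S + D. The numbered libraries that stood apart were replicate 2 for KRT6B in control at 72 h (14 CPM), replicate 1 with S + D at 72 h for KRT14 (0.512 CPM) and KRT18 (500.2 CPM), and replicate 3 for KRT19 in control at 72 h (3256 CPM).

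For 12 responses the log2 fold change against control differed between 72 h and 24 h by the edgeR test of that difference. With Sal the differences were -2.79 for KRT5, -3.52 for KRT6A, -4.71 for KRT6B, -4.62 for KRT14, -0.72 for KRT7, -1.20 for KRT8 and -1.43 for KRT19. With Das KRT6B differed by -2.34. With S + D the differences were -3.59 for KRT6A, -3.05 for KRT6B, -2.94 for KRT14 and -0.83 for KRT19. The fitted differences of KRT6A rest on at most 5 counts per treated library at 72 h.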

How the results depend on the processing

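Of 75 keratin calls, 61 held under every alternative and every left-out library, and 0 changed direction. Counts of keratins called changed as follows, and the cause was not tested. With the fold cutoff added, counts were 0 for Sal, 3 for Das and 5 for S + D at 24 h, 2 and 0 for S + D against Sal and Das at 24 h, 0 and 2 at 72 h, and 4 for the Sal response over time. Of all genes, 0.00611%, 1.01% and 2.93% passed both cutoffs as lower with Sal, Das and S + D at 24 h. As lower, 1.07% passed for S + D against Sal at 24 h and 5.43% for the Sal response. For S + D against Das at 72 h, 3.51% passed as higher and 5.35% as lower. For Sal at 24 h the count was 2, and 5 by DESeq2, 8 with the block, 8 in the numbered libraries, 8 with the batch term, 0 with all 32 libraries, 1 with only the groups compared and 1 to 2 with a library left out. Of all 16357 genes, the fit reported called 745 higher and 364 lower, and DESeq2 1129 and 894. The block gave 1630 and 1425, the batch term 1855 and 1773, and the numbered libraries 2061 and 1767 of 16257. For S + D against Sal at 72 h the keratin count was 1, and 2 by DESeq2, 4 with the block, 2 in the numbered libraries, 4 with the batch term, 2 with all 32 libraries, 0 with only the groups compared and 0 to 2 with a library left out. Of all 16682 genes, the fit reported called 237 higher and 265 lower, and DESeq2 555 and 565. The block gave 594 and 633, the batch term 701 and 702, and the numbered libraries 397 and 316 of 16527. The numbered libraries gave 2 for the interaction at 24 h, 7 for S + D against Das at 72 h and 1 for control over time, which was also 1 with only the groups compared. Over all genes they called 95 higher and 732 lower for that interaction, where the fit reported called 0 and 5. For S + D against Das they called 2779 and 3268 (2391 and 2957 in the fit reported). For control over time they called 1196 and 684 (344 and 131 in the fit reported). The Das response over time gave 3 by DESeq2, 3 with the block, 4 in the numbered libraries, 3 with the batch term and 0 to 3 with a library left out. Over all genes the fit reported called 9 higher and 30 lower for it, and DESeq2 46 and 121. The block gave 58 and 203, the batch term 69 and 229, and the numbered libraries 139 and 468. The S + D response gave 7 with the block and 7 with the batch term. All genes called went from 1059 higher and 1746 lower to 2166 and 2847 with the block and 2241 and 2923 with the batch term. KRT6B summed with its copies was at 14.6 CPM in control at 72 h.

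Values that changed sign were all below the call threshold in the fit reported. In the numbered libraries KRT16 gave -0.078 for the interaction at 24 h, KRT14 0.0044 and KRT8 0.21 for S + D against Sal at 72 h, and KRT18 0.015 for control over time. KRT17 with Das at 72 h gave -0.16 with the block, -0.46 in the numbered libraries and -0.083 with the batch term, and in control over time 0.060, 0.13 and 0.048. KRT6A summed with its copies gave 0.21 for S + D against Sal at 72 h. With 1 library left out, log2 values spanned 0 as follows. At 24 h KRT17 ran from -0.37 to 0.80 with S + D, from -1.03 to 0.21 for S + D against Das and from -0.44 to 0.84 for the interaction, KRT16 from -0.062 to 0.29 for the interaction and KRT7 from -0.0035 to 0.079 for S + D against Sal. At 72 h KRT17 ran from -0.13 to 0.66 with Sal and -0.72 to 0.59 with Das, KRT7 from -0.016 to 0.11 with Das, KRT6B from -0.38 to 1.25 and KRT8 from -0.29 to 0.31 for S + D against Sal, and KRT5 from -0.13 to 0.24 for S + D against Das. For control over time KRT17 ran from -0.32 to 0.41, KRT7 from -0.079 to 0.0081 and KRT18 from -0.066 to 0.073. KRT18 ran from -0.22 to 0.014 for the Sal response and KRT17 from -1.41 to 0.077 for the Das response.

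By direction, the replicate block also moved the count of keratins higher from 0 to 2 for Das at 24 h, from 0 to 1 for S + D against Sal at 24 h and from 1 to 2 for S + D against Das at 72 h. Over all genes the count higher moved from 1143 to 2192, from 954 to 2206 and from 2391 to 3374 in the same order. For S + D against Sal at 72 h the block called 3 keratins higher (KRT5, KRT16 and KRT17) and 1 lower (KRT18). For the Das response it added KRT14 and KRT16 as lower. For the S + D response it added KRT16 (1.02) and KRT17 (1.63) as higher and KRT7 (-0.56) as lower. Over all genes the block called 594 higher and 633 lower for S + D against Sal. It called 203 lower for the Das response, and 2166 higher and 2847 lower for the S + D response. At 72 h 7 of 16 libraries had their highest mean correlation with the libraries of their own number (9 of 16 at 24 h). The unnumbered libraries were counted as 1 number. Depth limited KRT6A, KRT6B and KRT14 after treatment at 72 h, where libraries held few counts.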
